A study of Mus musculus with 3 samples.

Results

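Nucleosome positions were described at 10 genes that mark macrophages, chosen by name from the gene table, out of 21519 protein-coding genes located on autosomes or chromosome X. The members were the surface proteins Adgre1, Csf1r, Vcam1, Itgam and Siglec1, the complement chains C1qa, C1qb and C1qc, and the lysosomal and pore-forming proteins Cd68 and Mpeg1. All 10 were found, none was left out for low values, and each had listed positions on every day. The material was chromatin of in vitro cultured erythroblasts, red cell precursors, from mouse fetal liver, described as Ter119-negative. Ter119 is a surface marker of later erythroid cells. Whether the cells still lacked it on days 1 and 2 was not checked here. The labels give 6 fetuses, and a medium with insulin, 1% BSA and 10% serum to which 2 U/ml of erythropoietin, the hormone behind red cell formation, was added. Cells were taken on culture days 0, 1 and 2, and the sources used here do not give genotype, strain, fetal age or whether fetuses were pooled. Micrococcal nuclease cuts the DNA between nucleosomes, so the DNA that survives marks where nucleosomes sat. There was 1 library per day, so no test between days was possible, and each value describes that library only.

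Erythroblasts of the fetal liver mature around a central macrophage in structures called erythroblastic islands. The macrophage holds the erythroblasts through adhesion proteins such as Vcam1, supplies iron and takes up the nuclei that they expel. Adgre1 carries the F4/80 antigen, Csf1r is the receptor for the growth factor Csf1, and Siglec1 (Cd169) is a lectin of resident macrophages. Itgam (Cd11b) is an integrin chain of myeloid cells. C1qa, C1qb and C1qc encode the chains of the complement protein C1q, Cd68 is a lysosomal membrane protein, and Mpeg1 encodes perforin-2, a pore-forming protein that acts on bacteria. In erythroblasts these are genes of another lineage. Nucleosome positions show where DNA was packed and not whether a gene was expressed, so they do not check the labelled cell type or the presence of macrophages, and what part a few macrophages could have in these values was not tested.

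The lists held 3735952, 2999502 and 4474045 positions on days 0, 1 and 2, each 140 bp wide. The sources used here do not give the numbers of reads. The window of a gene was the gene with 5 kb on each side. Its relative occupancy is the sum of the summit values there (coverage at a position's centre, smoothed by the authors) per bp over the mean of the autosomes in the same library, so 1 is the average of the autosomes. Median relative occupancy over all gene windows on days 0, 1 and 2 was 1.77, 1.83 and 1.61. Intervals are exact 95% intervals of position numbers, and cover counting error only. Genes are located on mm10, in the coordinates of GRCm38.p6, which are the same.

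The marker genes did not share a nucleosome level. Cd68 and Siglec1 lay at the top on all 3 days and Adgre1 at the bottom. The windows of C1qa, C1qb and C1qc were lower on days 1 and 2 than on day 0. Mpeg1 went from a sparsely covered window on day 0 to one above the median of all genes on day 1, and Adgre1 was highest on day 2.

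**Figure D1:**
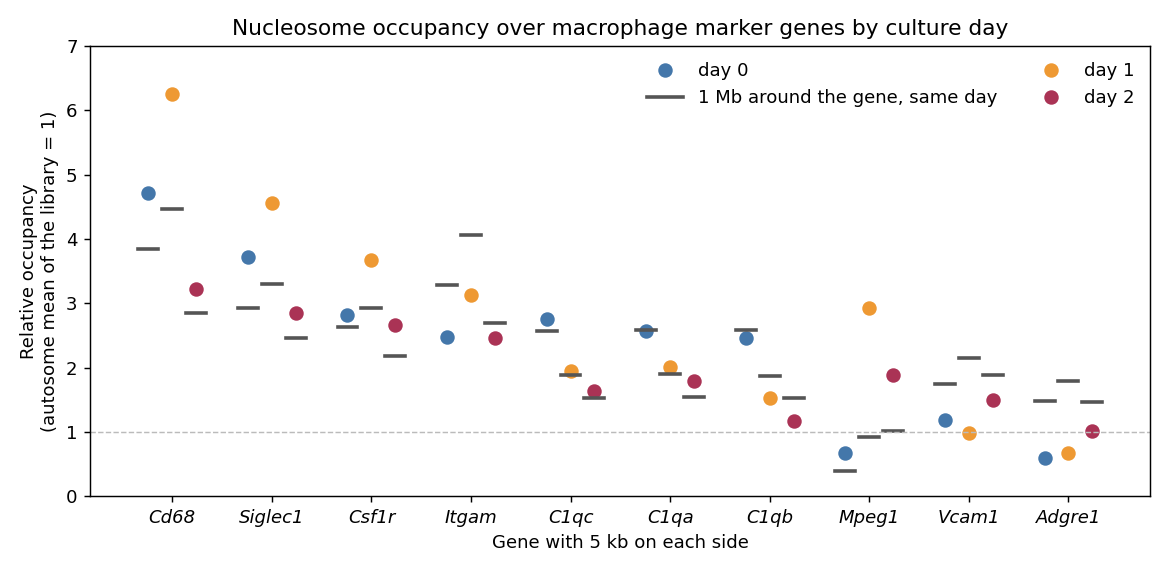
Relative occupancy (vertical axis, autosome mean of the library set to 1) over each gene with 5 kb on each side (horizontal axis), with 1 point per library and no replicates; short bars give the 1 Mb around the gene on the same day. Cd68 reached 6.26 on day 1, and Adgre1 lay between 0.587 and 1.02.

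Among the surface proteins, Adgre1 is the longest member. It lies on chromosome 17 from 57358581 to 57483529 and spans 124949 bp. Its window held 139, 127 and 270 positions on days 0, 1 and 2, and relative occupancy was 0.587, 0.672 and 1.02. These levels were at percentiles 22.4, 28.2 and 31.6 of all genes. The 1 Mb around it had 1.47, 1.79 and 1.47, so Adgre1 was poorer in listed positions than its surroundings on each day. The scaled ratio of a gene is its ratio of position numbers between 2 days over that of the autosome totals of both lists. From day 0 to day 2 it was 1.64 at Adgre1 (1.33 to 2.02), and the log2 ratio of relative occupancy was 0.79. The 1 Mb around it had a log2 ratio of -0.01 in the same step.

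The positions of Adgre1 were unevenly spread along the gene. In tiles of 5 kb the day 1 level was highest just outside the lower-coordinate end, at 2.62, and the day 2 level reached 2.09 both there and in the tile from 45000 to 49999 bp inside the gene. On day 1 no position was listed over a stretch of 11088 bp at the other end, from 118860 to 129948 bp beyond the lower-coordinate end. The longest such stretches on days 0 and 2 were 6533 and 5448 bp, and they overlapped each other, starting at 109152 and 110324 bp. Whether such stretches hold repeats to which reads could not be assigned was not tested.

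Csf1r lies on chromosome 18 from 61105572 to 61131139. Its window, which also takes in part of Hmgxb3, held 139, 151 and 143 positions, and its relative occupancy on the 3 days was 2.81, 3.68 and 2.66. Day 1 was the highest, with scaled ratios of 1.35 (1.07 to 1.71) from day 0 to 1 and 0.641 (0.507 to 0.812) from day 1 to 2. This order turned when only summit values of 10 and above were kept, where relative occupancy was 4.23, 3.89 and 5.34. The surrounding 1 Mb had the same order of days, with 2.63, 2.93 and 2.18, and relative to it the log2 ratio of Csf1r was 0.23 from day 0 to 1 and -0.04 from day 1 to 2. The flank of 5 kb at the lower-coordinate end held 8, 20 and 22 positions on days 0, 1 and 2. On day 0 its outer 2482 bp held none.

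Itgam lies on chromosome 7 from 128062640 to 128118491. Its window held 222, 229 and 261 positions, with relative occupancy 2.48, 3.13 and 2.47. The gene was thus highest on day 1 and nearly equal on days 0 and 2, when its log2 ratio was -0.01. The surrounding 1 Mb had 3.28, 4.05 and 2.70, above Itgam on each day. The flank at the higher-coordinate end held 7, 18 and 19 positions, with a relative occupancy of 0.841, 3.51 and 2.42. The gene body had 2.51, 2.92 and 2.39, so this flank lay below it on day 0 only.

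Siglec1 lies on chromosome 2 from 131067801 to 131086778, and part of Adam33 falls into its window. It held 137, 135 and 124 positions, with relative occupancy 3.73, 4.56 and 2.85, at percentiles 88.3, 86.0 and 83.7 of all genes. The scaled ratio from day 1 to day 2 was 0.622 (0.483 to 0.800). Its 1 Mb had 2.93, 3.29 and 2.45, in the same order of days as the gene.

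Vcam1 lies on chromosome 3 from 116110020 to 116129688, with no other gene of the table in its window. It held 58, 41 and 80 positions, with relative occupancy 1.18, 0.987 and 1.49. Day 1 was lowest here, while the 1 Mb around Vcam1 was highest on day 1, at 1.74, 2.16 and 1.89. The intervals of the scaled ratios included 1 in each step, with 0.879 (0.574 to 1.33) from day 0 to 1 and 1.32 (0.896 to 1.98) from day 1 to 2.

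The 3 complement genes lie side by side on chromosome 4. C1qb runs from 136880126 to 136886200, C1qc from 136889801 to 136892936 and C1qa from 136895916 to 136898844. Their windows overlap and share positions, so they are not 3 separate observations. Taken as 1 window of 28.7 kb, the cluster held 107, 68 and 79 positions on days 0, 1 and 2, with relative occupancy 2.51, 1.73 and 1.45. Its scaled ratio from day 0 to day 2 was 0.622 (0.459 to 0.839). The interval from day 0 to 1 included 1, at 0.790 (0.574 to 1.08).

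In these windows C1qb had the largest change of the 3 genes, from 2.45 on day 0 to 1.53 and 1.17. Its log2 ratio of -1.06 from day 0 to 2 lay at percentile 1.50 of the genes with positions on both days. C1qc went from 2.75 to 1.94 and 1.64 and C1qa from 2.57 to 2.00 and 1.79. Over the gene bodies alone the order differed, with a log2 ratio from day 0 to 2 of -1.07 at C1qc (3.33 to 1.59) and -0.85 at C1qb (2.37 to 1.32). The body of C1qa did not follow, with 11, 14 and 14 positions and relative occupancy 2.52, 3.90 and 2.79. The 1 Mb around C1qa was lower too, at 2.58, 1.89 and 1.54. Relative to that 1 Mb, C1qc had a log2 ratio of 0.0036 from day 0 to 2, C1qa 0.22 and C1qb -0.31.

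Cd68 is the shortest member, 1958 bp on chromosome 11 from 69664213 to 69666170, and its window takes in parts of Mpdu1 and of Eif4a1, a translation factor gene. Most of the window is flank, and the surrounding 1 Mb holds 60 protein-coding genes. It held 60, 62 and 53 positions, with relative occupancy 4.72, 6.26 and 3.21, at percentiles 98.4, 97.8 and 90.9 of all genes. The gene body alone held 10, 8 and 10 positions, with 5.13, 5.43 and 3.95. The scaled ratio from day 1 to day 2 was 0.579 (0.393 to 0.849). The log2 ratio of -0.96 lay at percentile 1.06 of the genes with positions on both days. The 1 Mb was lower on day 2 as well, at 3.85, 4.47 and 2.85, and relative to it the log2 ratio of that step was -0.31. Over the gene body alone it was -0.46.

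Mpeg1 lies on chromosome 19 from 12460770 to 12465285, next to Dtx4 and in a stretch of olfactory receptor genes, with 25 of these among the 36 protein-coding genes of the surrounding 1 Mb. Its window held 18, 50 and 50 positions on days 0, 1 and 2, with relative occupancy 0.667, 2.92 and 1.89. From day 0 to day 1 the scaled ratio was 3.45 (1.98 to 6.29). The log2 ratio of 2.13 was at percentile 99.6 of the 20892 genes with positions on both days, which leaves out genes without positions on day 0. The gene body held 4, 18 and 16 positions. On day 0 no position was listed over 4085 bp, from 1114 bp before the start of Mpeg1 to 2971 bp inside it, while the longest empty stretches on days 1 and 2 were 1361 and 1025 bp. The 1 Mb around it also had more on the later days, at 0.391, 0.921 and 1.01, and relative to it the log2 ratio was 0.89 from day 0 to 1 and 0.14 from day 0 to 2.

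**Figure D2:**
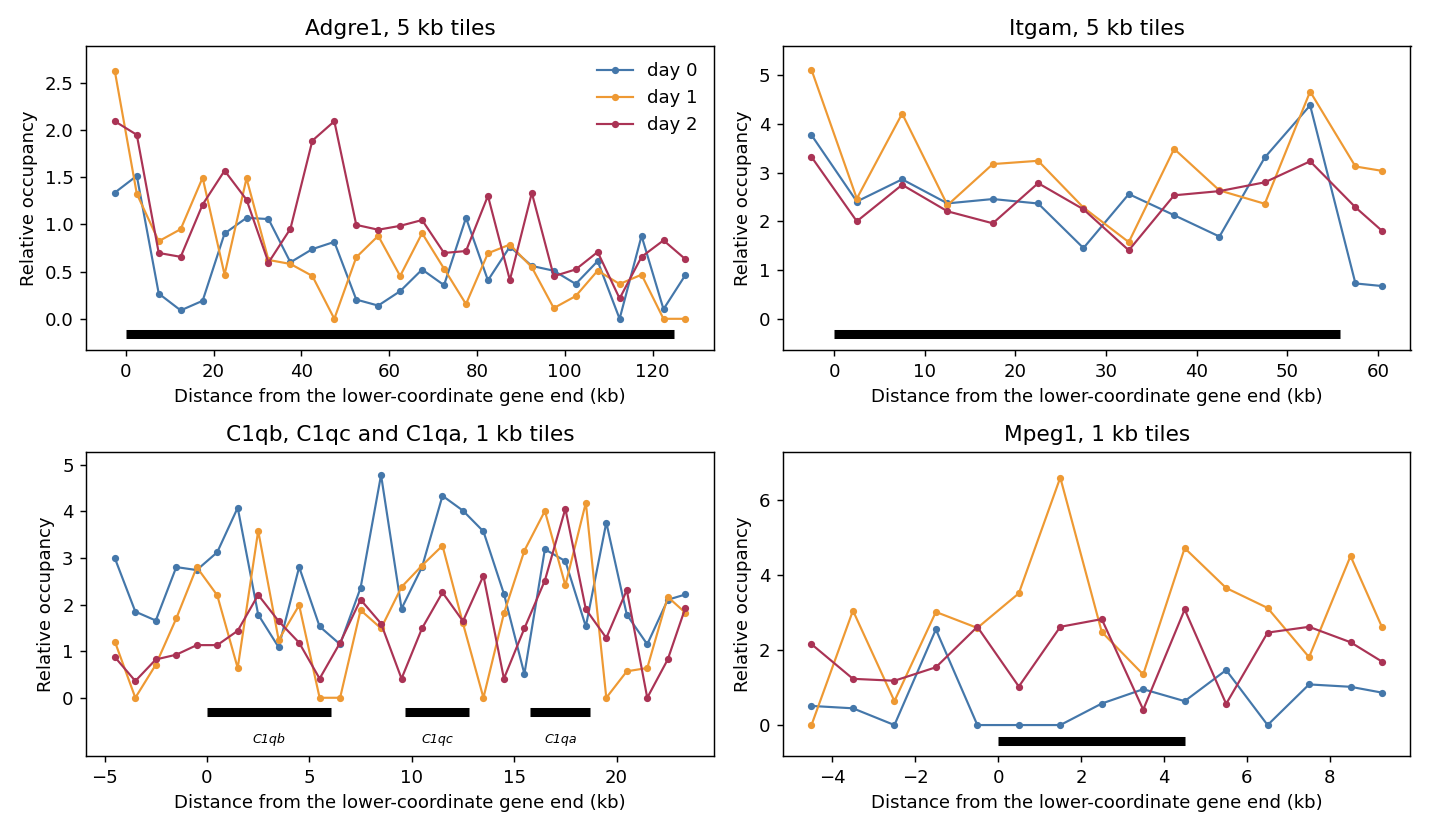
Relative occupancy (vertical axes) in tiles of 5 kb along Adgre1 and Itgam and of 1 kb along the C1q cluster and Mpeg1, by distance from the lower-coordinate end of the first gene (horizontal axes, kb), with 1 line per library and black bars for the genes. The day 0 line of Mpeg1 lies at 0 in 5 of 15 tiles, and the day 2 line of Adgre1 reaches 2.09.

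By density, Cd68 and Siglec1 came first on each day, with 5.02 and 4.73 positions per kb on day 0, and Adgre1 came last, with 1.03. On day 0 the intervals of neighbours overlapped among the 7 genes from Cd68 down to Itgam (3.37, 2.94 to 3.85). A step followed to Vcam1 (1.95, 1.48 to 2.53), whose interval did not reach that of Itgam. On days 1 and 2 every neighbouring pair in the order overlapped, so the order was not resolved pair by pair. Mpeg1 ranked 9 of 10 on day 0 and 5 on both later days.

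Over all 10 windows, with overlaps joined into 350.2 kb, there were 880, 863 and 1060 positions and a relative occupancy of 1.78, 2.16 and 1.79. The log2 ratios were 0.28 for day 0 to 1, -0.27 for day 1 to 2 and 0.01 for day 0 to 2. The scaled ratios of position numbers were 1.22 (1.11 to 1.34), 0.832 (0.760 to 0.911) and 1.01 (0.927 to 1.11). The pooled level was highest on day 1, as was the window of 47.8% of all genes. Relative to the 1 Mb around each gene, the second step turned to 0.15 and the third was 0.26, and relative to the median of all gene windows the second was -0.08. Without Adgre1, whose window is the longest, the steps from day 1 to 2 and day 0 to 2 were -0.44 and -0.15.

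Gene by gene, the median log2 ratio of the members was 0.24 from day 0 to 1, where that of all genes was 0.15. From day 1 to 2 it was -0.36 against -0.21, and from day 0 to 2 it was -0.23 against -0.10. Csf1r, Mpeg1, Itgam, Cd68 and Siglec1 were highest on day 1, the 3 complement genes on day 0, and Adgre1 and Vcam1 on day 2. Day 2 was the lowest day for 7 of the 10, and for 45.8% of all genes. Scaled ratios had counting intervals without 1 at 3 members from day 0 to 1 (Csf1r, Mpeg1 and Itgam), at 5 from day 1 to 2 (Adgre1, Csf1r, Itgam, Cd68 and Siglec1) and at 5 from day 0 to 2 (Adgre1, Mpeg1, C1qb, C1qc and Siglec1). Of all genes, 31.6%, 53.3% and 30.2% had such intervals in these steps. The 3 members of the first step were above 1, where 20.1% of all genes were, and 0 were below, where 11.5% were. In the second step Adgre1 was above 1 (14.1% of all genes) and the other 4 below (39.2%). In the last step Adgre1 and Mpeg1 were above (12.0%) and C1qb, C1qc and Siglec1 below (18.1%). By a size rule of at least 2 times, from day 0 to 1 Mpeg1 was higher, where 3.69% of all genes were higher, and 0 members were lower, where 10.2% were. From day 1 to 2 no member passed, against 16.6% of all genes higher and 0.669% lower. From day 0 to 2 Mpeg1 was higher (12.2% of all genes) and C1qb lower (1.96% of all genes). These comparisons share libraries and are not independent of each other. The sign of the change at a member was that of its 1 Mb in 9 of 10 members for day 0 to 1, in 7 for day 1 to 2 and in 9 for day 0 to 2. The 3 complement genes count separately here although they share nearly the same 1 Mb. Each window is also part of the 1 Mb it is set against, and the same share over all genes is not given.

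**Figure D3:**
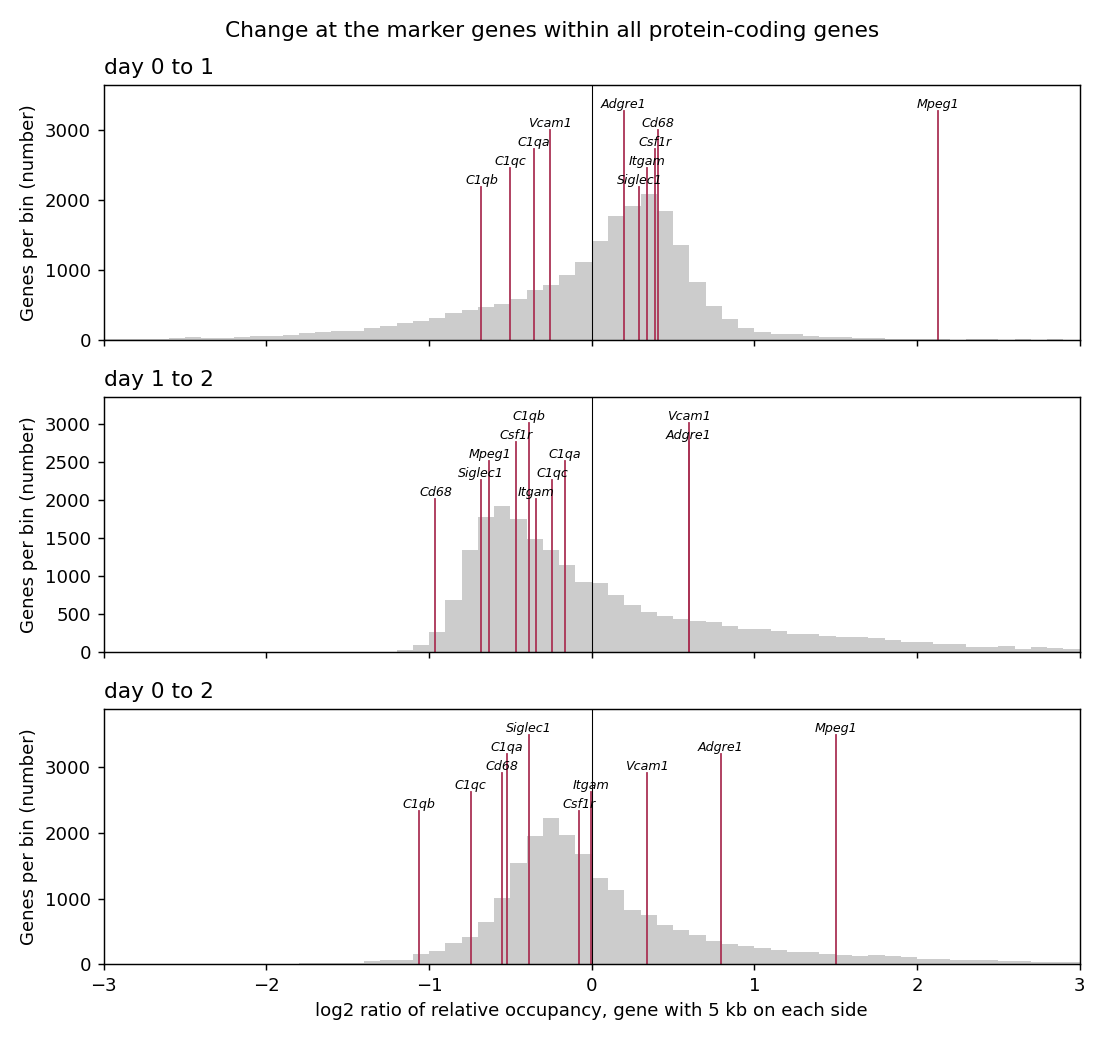
Number of protein-coding genes (vertical axes) by log2 ratio of relative occupancy over the gene with 5 kb on each side (horizontal axis, bins of 0.1), with the 10 members as labelled lines. Mpeg1 stands at 2.13 from day 0 to 1, Cd68 at -0.96 from day 1 to 2, and C1qb at -1.06 from day 0 to 2.

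At the gene ends the numbers were small. The 500 bp to either side of the 2 ends held 59, 56 and 66 positions over all 10 genes, with pooled relative occupancy of 2.04, 2.57 and 1.92. The scaled ratios of position numbers were 1.18 (0.804 to 1.73), 0.798 (0.551 to 1.16) and 0.942 (0.653 to 1.36) for days 0 to 1, 1 to 2 and 0 to 2, so no change at the ends was resolved at this depth. Median relative occupancy at the ends of all genes was 1.81, 2.41 and 1.79.

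Mpeg1 had 1 position at its ends on day 0, 9 on day 1 and 7 on day 2, and C1qa had 2, 8 and 6. Their relative occupancy was 0.318, 3.93 and 2.03 at Mpeg1 and 0.636, 3.61 and 1.51 at C1qa. Mpeg1 was the only member whose counting interval excluded 1 in any step, at 11.2 (1.55 to 490) from day 0 to 1. Of all genes, 0.673% had such an interval in that step, 0.585% from day 1 to 2 and 0.558% for days 0 and 2. With 1 position on day 0 the size of that ratio is hardly bounded. C1qa, with 4.97 (0.992 to 48.1) in that step, went the other way from the window around it.

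The ends of the other complement genes held fewer positions on day 1 than on day 0, with 5, 3 and 4 at C1qb and 9, 5 and 6 at C1qc. Csf1r had 7, 3 and 7, Siglec1 had 12, 6 and 10, and Adgre1 had 5, 2 and 7, all with their fewest on day 1. These numbers are not scaled to the lists, and the day 1 list was the shortest. The share of all genes with their fewest on day 1 is not given. By relative occupancy, the ends of C1qc were lowest on day 2, at 3.05, 1.89 and 1.49 on days 0, 1 and 2. Vcam1 had 2, 3 and 6, Itgam 6, 7 and 5, and Cd68 10, 10 and 8. By the rule of 2 times, 3 members (Vcam1, Mpeg1 and C1qa) were higher from day 0 to 1, where 22.0% of all genes were, and Csf1r was lower, where 11.2% were. From day 1 to 2 Csf1r was higher (15.3% of all genes), and C1qa and Cd68 lower (18.4%). From day 0 to 2 Vcam1, Mpeg1 and C1qa were higher (18.5%) and C1qc lower (10.1%).

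**Figure D4:**
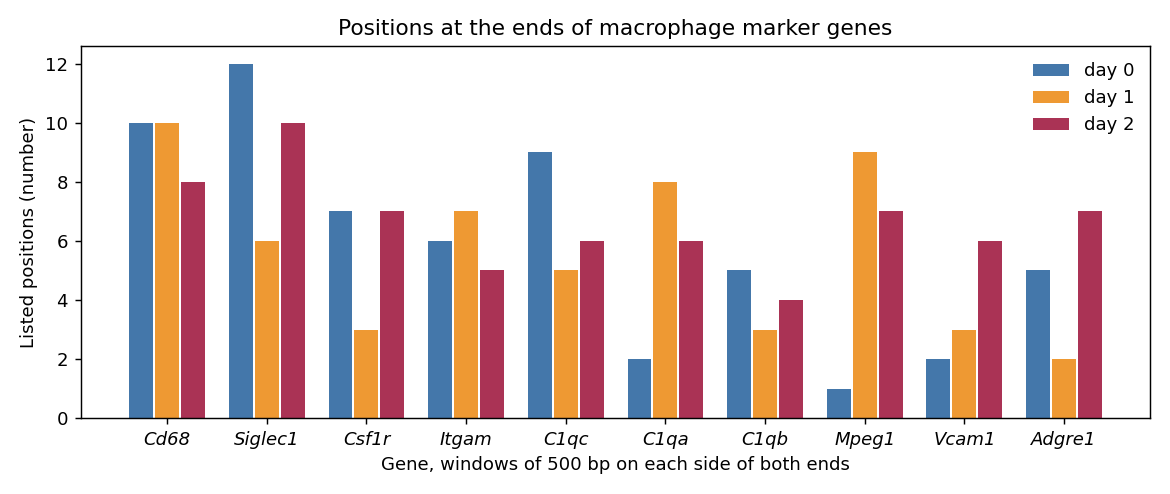
Number of listed positions (vertical axis) within 500 bp of both ends of each gene (horizontal axis), with 1 bar per library. Mpeg1 had 1, 9 and 7 and Siglec1 12, 6 and 10 on days 0, 1 and 2.

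Start sites could be told from stop ends at the 5 members with an entry in the RefSeq promoter table (GRCm38.p6), which gives 250 bases before and 50 after each start: Itgam, C1qb, C1qc, Cd68 and Mpeg1. Spi1 (PU.1), a factor of the ETS family that macrophages depend on, binds purine-rich sites with a GGAA core, so the stretch GAGGAA was searched on both strands, as GAGGAA or TTCCTC. It was found in 4 of these 5 promoters, and in 28.2% of 32619 promoters of the same 300 bases. C1qb had listed positions on the same days as C1qc and is left out below. The 250 bases before the start are shown for Itgam, C1qc, Cd68 and Mpeg1, whose days with a listed position differed. They are in the direction of the gene, and capitals mark the searched letters, which describe the sequence and not a binding site.
Itgam (chr7:128062390-128062639, + strand): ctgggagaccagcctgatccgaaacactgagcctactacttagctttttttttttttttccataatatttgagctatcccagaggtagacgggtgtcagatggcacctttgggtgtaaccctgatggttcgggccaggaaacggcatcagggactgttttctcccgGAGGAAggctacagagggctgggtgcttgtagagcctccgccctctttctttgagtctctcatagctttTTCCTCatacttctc
C1qc (chr4:136892915-136893164, - strand): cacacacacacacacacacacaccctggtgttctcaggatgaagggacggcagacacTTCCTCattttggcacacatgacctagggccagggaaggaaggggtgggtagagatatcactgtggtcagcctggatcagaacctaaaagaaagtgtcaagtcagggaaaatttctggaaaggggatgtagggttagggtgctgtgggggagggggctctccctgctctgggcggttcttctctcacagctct
Cd68 (chr11:69666171-69666420, - strand): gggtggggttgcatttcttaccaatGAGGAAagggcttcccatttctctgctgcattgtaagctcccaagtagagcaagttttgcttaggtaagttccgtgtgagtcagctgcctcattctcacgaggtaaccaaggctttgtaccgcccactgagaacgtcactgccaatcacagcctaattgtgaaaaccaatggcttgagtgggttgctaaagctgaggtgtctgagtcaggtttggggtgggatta
Mpeg1 (chr19:12460520-12460769, + strand): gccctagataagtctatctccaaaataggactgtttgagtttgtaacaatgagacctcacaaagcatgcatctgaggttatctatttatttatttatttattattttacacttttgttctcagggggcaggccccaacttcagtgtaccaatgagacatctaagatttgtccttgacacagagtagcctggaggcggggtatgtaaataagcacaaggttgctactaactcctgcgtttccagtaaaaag

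The start of Itgam was the only one of the 5 with a position in its 300 bases on each day, where 32.5% of all promoters had one. The centre lay 89 bp before the start on day 0, 124 bp on day 1 and 119 bp on day 2, with summit values of 9.15, 6.47 and 13.8. Another day 0 position lay 234 bp before the start. The capitals of Itgam begin at 84 and 15 bases before the start, so the first set lies within 70 bp of each of the 3 centres and under their 140 bp footprints, and the second is 74 bp or more from them, outside the footprints. One more match begins 32 bases after the start.

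C1qc had a centre 157 bp before its start on day 0, with a summit value of 13.0, and 92 bp before it on day 2, with 5.0. On day 1 the nearest centre upstream was 1362 bp away. The match of C1qc to the searched letters begins 193 bases before the start, under the footprint of the day 0 centre and not of the day 2 centre. C1qb showed the same days, with a centre 166 bp before the start on day 0, centres at 41 and 156 bp on day 2, and the nearest upstream centre on day 1 at 976 bp. Its single match to the searched letters begins 30 bases before the start, under the footprint of the day 2 centre at 41 bp.

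Cd68, in the most densely covered window, had a single promoter position, on day 1, 86 bp before the start with a summit value of 5.18. The nearest centres on days 0 and 2 lay 251 and 326 bp upstream and 287 and 279 bp downstream, so the start itself was flanked but not covered by listed positions. The matches of Cd68 begin 225 bases before the start and 29 bases after it. The first lies within 70 bp of centres 251 bp upstream on days 0 and 1. Mpeg1 had its single promoter position on day 2, 199 bp before the start. Its promoter held no match to the searched letters, and 40% of its 250 bases were G or C, against 49.2% at Cd68 and 54% at C1qc. Of all promoters, 54.2%, 51.8% and 62.6% had a position on days 0, 1 and 2.

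Few listed positions had a centre of another day close by. The lists were called separately, so a missing match does not show that a nucleosome moved. Of the 880 positions at the members on day 0, 18.5% (16.0 to 21.3%) had a day 1 centre within 20 bp, and over the windows of all genes 15.4% did. For day 0 and day 2 the shares were 19.7% (17.1 to 22.4%) and 17.2%, and for day 1 and day 2 they were 20.3% (17.6 to 23.1%) and 19.5%. The member windows thus lay above all genes by more than counting error in the first pair and within it in the other 2. Counted within 10 bp, no pair lay beyond counting error, and within 40 bp the first and the last pair did. A share of this kind goes with how densely positions are listed, and the share that density alone would give was not computed.

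A centre within 20 bp on both later days was found for 28 of the 880, or 3.18%, where the share over all genes was 3.63%. Itgam had 11 of them among its 222 day 0 positions and Cd68 8 among 60, which is 13.3%. Siglec1 had 4, Csf1r 3, and Adgre1 and Vcam1 1 each, while Mpeg1 and the 3 complement genes had none. At Cd68, 1 of the 8 lay within the gene, centred 1078 bp from its lower-coordinate end with summit values of 16.4, 8.27 and 16.4. At Csf1r a position 3929 bp inside the lower-coordinate end had the same centre, 61109501, on all 3 days, with summit values of 15.6, 7.56 and 16.4. At Itgam the 11 were spread through the gene, from 1871 bp inside the lower-coordinate end to 300 bp beyond the other.

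The median summit value ranged from 6.10 at Adgre1 and Mpeg1 to 10.7 at Cd68 on day 0, and from 5.63 at Adgre1 to 8.76 at Cd68 on day 2. It was highest on day 0 at 8 members and on day 1 at Adgre1 and Mpeg1, with 6.10 and 6.15 on days 0 and 1 at Adgre1 and 6.10 and 7.61 at Mpeg1. The lowest day was day 2 at 5 members, day 1 at 4 and day 0 at Mpeg1. Over the whole lists the median was 7.62, 6.80 and 6.26 on days 0, 1 and 2. The share of all genes with their highest median on each day is not given. The median fuzziness score, the spread of reads around a centre, was higher on day 1 than on day 0 at all 10 members, as in the whole lists, with 51.0 on day 0 and 54.5 on day 1. The median distance between neighbouring centres was 190, 165 and 188 bp at Cd68, near the length of DNA from one nucleosome to the next, and 489, 453 and 265 bp at Adgre1.

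A wider list of 30 genes of macrophages, among them receptors, lysosomal proteins and the transcription factors Spi1 and Irf8, was measured in the same windows. Its median log2 ratio from day 0 to 1 was 0.36, against 0.15 over all genes. Of its genes, 27 were above 0 and 3 below. From day 1 to 2 its median was -0.46, against -0.21 over all genes, with 7 of its genes above 0 and 23 below. From day 0 to 2 it was -0.11, with 13 above and 17 below, where the median of all genes was -0.10. Most genes with positions on both days were above 0 in the first of these steps and below 0 in the later 2. Their exact shares are not given. Msr1, a scavenger receptor, had the largest log2 ratio from day 0 to 2, at 1.56, with 43, 40 and 139 positions. Spic, a factor of iron-recycling macrophages, followed at 1.09, with 16, 15 and 38. They were the only 2 of the 30 genes higher by the size rule of 2 times, where 12.2% of all genes were. Both had low levels, with relative occupancy of 0.211, 0.250 and 0.622 at Msr1. The lowest were the phagocytic receptor Mertk at -0.45 and the Fc receptor Fcgr3 at -0.40. Between neighbouring days the size rule was also passed by genes named here after their values were seen. From day 0 to 1, 1 of the 30 (Marco) was lower, where 10.2% of all genes were. From day 1 to 2, 3 of the 30 (Timd4, Marco and Msr1) were higher, where 16.6% of all genes were.

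Genes of erythroid cells and hepatocytes were measured beside them. Of 18 erythroid genes none changed by 2 times over these windows in any step. Of all genes, 3.69% were higher and 10.2% lower from day 0 to 1. From day 1 to 2 these shares were 16.6% and 0.669%, and from day 0 to 2 they were 12.2% and 1.96%. The median log2 ratios of the erythroid genes were 0.38, -0.33 and 0.08 for days 0 to 1, 1 to 2 and 0 to 2. From day 0 to 1, 17 of the 18 were above 0 and 1 below, and from day 1 to 2, 5 and 13. Most genes with positions on both days were likewise above 0 in the first step and below 0 in the second. The heme synthesis gene Alas2 had 0.82 from day 0 to 2, and the lowest were Epb42 at -0.40 and Klf1 at -0.38. The 8 hepatocyte genes had medians of -0.89, 0.47 and -0.27. The serum protein genes Alb and Afp were the highest from day 0 to 2, at 0.14 and 0.13, and Hnf4a and Ahsg the lowest, at -0.61 and -0.52. By the size rule, 3 of the 8 were lower from day 0 to 1, where 10.2% of all genes were, and the same 3 were higher from day 1 to 2, where 16.6% were. They were Alb, with 24, 9 and 32 positions, Afp, with 36, 14 and 41, and Serpina1a, with 26, 3 and 25, which is named after its values were seen. Their log2 ratios from day 0 to 1 were -1.10, -1.11 and -2.98. Median relative occupancy on day 0 was 2.52 at the 10 macrophage members, 2.62 in the wider list, 2.41 at the erythroid genes and 1.03 at the hepatocyte genes.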

How the data were processed

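Each library has 1 list of nucleosome positions, as deposited by the authors. Bowtie2 and bedtools were used with the genome build mm10, per the submitters' processing notes, and the sources used here do not name the position caller. Summit values are a coverage signal that the authors smoothed and normalised, per the names of the files and their headers. The deposited fuzziness score has no stated unit. The deposited p-values of summit and fuzziness were not used. Since positions were called separately in each library, depth and calling limit every comparison, and relative values within a library were compared. Positions were assigned to genes by their centres. Percentiles and medians of log2 ratios over all genes cover only genes with positions on both days. Coordinates came from the RefSeq gene table of GRCm38.p6, without genes starting below 3 Mb. The autosome length, 2404 Mb, runs from 3 Mb to the last listed position of each autosome. Pooled values join overlapping windows. Intervals are exact Poisson (density), conditional binomial (ratios) and Clopper-Pearson (shares) at 95%. Sums over windows were tested on simulated data. Alternatives were other flanks, end windows, weights, summit minimums, scalings and distances. All members are named, and of each wider list the 2 largest changes in each direction from day 0 to 2. One of these is not reported here. The members and lists were chosen with earlier results of these data known. Python 3.11.15, numpy 2.4.6, pandas 2.3.3, scipy 1.17.1 and matplotlib 3.10.9 were used.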

Additional observations from a re-analysis of the deposited data

How the results depend on the processing

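With 1 library per day no replicate could be left out, and no paired analysis was possible because each day has a single library. Over the pooled windows, the log2 ratio from day 0 to 1 was 0.11 relative to the 1 Mb around each gene, where overlapping windows count for each gene. From day 1 to 2 it turned to 0.15 in that scaling, and was -0.084 relative to the median of all gene windows. From day 0 to 2 it was 0.26 relative to the 1 Mb. Without Adgre1, a choice made after seeing the data, as were those without Mpeg1 and without the complement genes, the last 2 steps were -0.44 and -0.15. At the gene ends, the step from day 1 to 2 was -1.06 among summit values of 10 or more. All other alternatives of the pooled values stayed within the counting interval, those at the ends in part on the other side of 0. At single members, 19 of 174 alternative values of the gene windows and 18 of 126 at the gene ends had the other sign. The 4 of these whose main interval excluded no change were those of Csf1r at summit values of 10 or more (-0.12 from day 0 to 1 and 0.46 from day 1 to 2), and, relative to the 1 Mb, of Itgam (0.24 from day 1 to 2) and C1qc (0.0036 from day 0 to 2). Others included C1qa without flanks (0.63 from day 0 to 1, against -0.36). Shared positions were 10.5%, 10.7% and 10.9% within 10 bp and 33.5%, 35.5% and 36.8% within 40 bp for days 0 and 1, 1 and 2, and 0 and 2, where all genes had 8.87%, 11.3% and 9.81%, and 27.6%, 34.5% and 30.7%.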
